A study of Mus musculus with 6 samples.

Results

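Chemokine ligands are small secreted proteins that direct the migration of leukocytes by binding receptors coupled to G proteins on the responding cell. They are sorted into CC, CXC, C and CX3C families by the spacing of their first conserved cysteines, and several receptors are shared by ligands of one family. Dendritic cells, which take up antigen and carry it to T cells, use them to draw T cells, monocytes and neutrophils. The genes described here are the 35 chemokine ligand genes, of 18193 genes in all, whose symbol in the array's annotation begins with Ccl or Cxcl followed by a number, together with Cx3cl1, Xcl1, Ppbp and Pf4. Each gene was represented by the probe set with the highest mean over the 6 arrays among the probe sets assigned to that gene alone, and 13 of the 35 had more than 1 such probe set. Ccl19 and Ccl21 are not among the 35, because their probe sets are shared with near-identical copies.

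The study measured RNA of cultured C57BL/6 mouse bone marrow cells on Affymetrix arrays in 3 groups of 2 arrays. GM-TNFa-DC were dendritic cells derived from GM-MPP with the growth factor GM-CSF plus the inflammatory cytokine TNFa. GM-DC were dendritic cells derived from the same kind of progenitor with GM-CSF but without TNFa. GM-MPP were multipotent progenitors grown out of marrow with stem cell cytokines plus GM-CSF, so that GM-CSF was common to all groups. No dose, time in culture or animal age is given in the sources used here. Nothing says that arrays 1 and 2 of a group stem from separate cultures or mice, so the p-values rest only on the spread between these samples, and that spread may be technical. Levels are log2 values, in which a difference of 1 is 2-fold, with array medians between 4.67 and 4.77. Levels near those medians lie close to the background of such arrays, and the level of one gene cannot be set against that of another.

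The labels were checked against marker genes. Of 12 dendritic cell markers, 9 rose and 1 fell in GM-TNFa-DC and 8 rose and 1 fell in GM-DC, both against GM-MPP, by limma with a Benjamini-Hochberg adjusted p under 0.05. Flt3, a cytokine receptor shared by progenitors and dendritic cells, was the one that fell. Itgax, which encodes CD11c, had levels of 11.59 and 11.00 in GM-TNFa-DC, 11.52 and 10.75 in GM-DC, and 4.47 and 4.49 in GM-MPP. Of 8 progenitor markers 6 fell in both comparisons. Of 11 neutrophil markers 7 fell in GM-TNFa-DC and 5 in GM-DC against GM-MPP. Mpo, a neutrophil granule enzyme gene, was at 4.27 and 3.43 in GM-TNFa-DC, 4.97 and 4.04 in GM-DC, and 11.84 and 13.05 in GM-MPP. Of 8 mast cell and basophil markers 4 and 2 fell, of 8 T, B and NK cell markers 2 fell in each comparison, of 11 megakaryocyte and platelet markers 2 and 1 fell, of 10 monocyte and macrophage markers 1 (Cd68) rose in each, and none of 11 stromal and endothelial markers passed. Over all genes 2.77% rose and 4.26% fell in GM-TNFa-DC, and 1.87% rose and 2.63% fell in GM-DC. The arrays within each dendritic cell group differed by number, as described for the ligands further on. Spiked-in poly-A control transcripts had higher signals on array 1 than on array 2 of each group, with mean ratios of 2.60 in GM-TNFa-DC, 2.16 in GM-DC, and 2.39 in GM-MPP, and their part in the ligands' values was not tested. What the number marks is not given in the sources used here, and values are therefore given for array 1 and then array 2 of each group throughout.

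Of the 35 ligands, 18 stayed below a level of 6 on all 6 arrays and 17 reached it on at least 1. The 18 dim ligands lay between 2.35 and 5.88, and none of them moved by more than 1.38 across the 6 arrays. The bright ligands fell into several patterns. Ccl17, Ccl22, Cxcl16 and Ccl5 were high on all 4 dendritic cell arrays and low in GM-MPP. Ccl6, Ccl9 and Ccl3 were at 8.47 or above on every array. Cxcl2, Cxcl3, Ccl2, Ccl7, Pf4 and Ppbp were at least 4.37-fold higher on array 2 than on array 1 in both dendritic cell groups. Such folds are not exact where the level on array 1 lay near or below the array median.

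**Figure D1:**
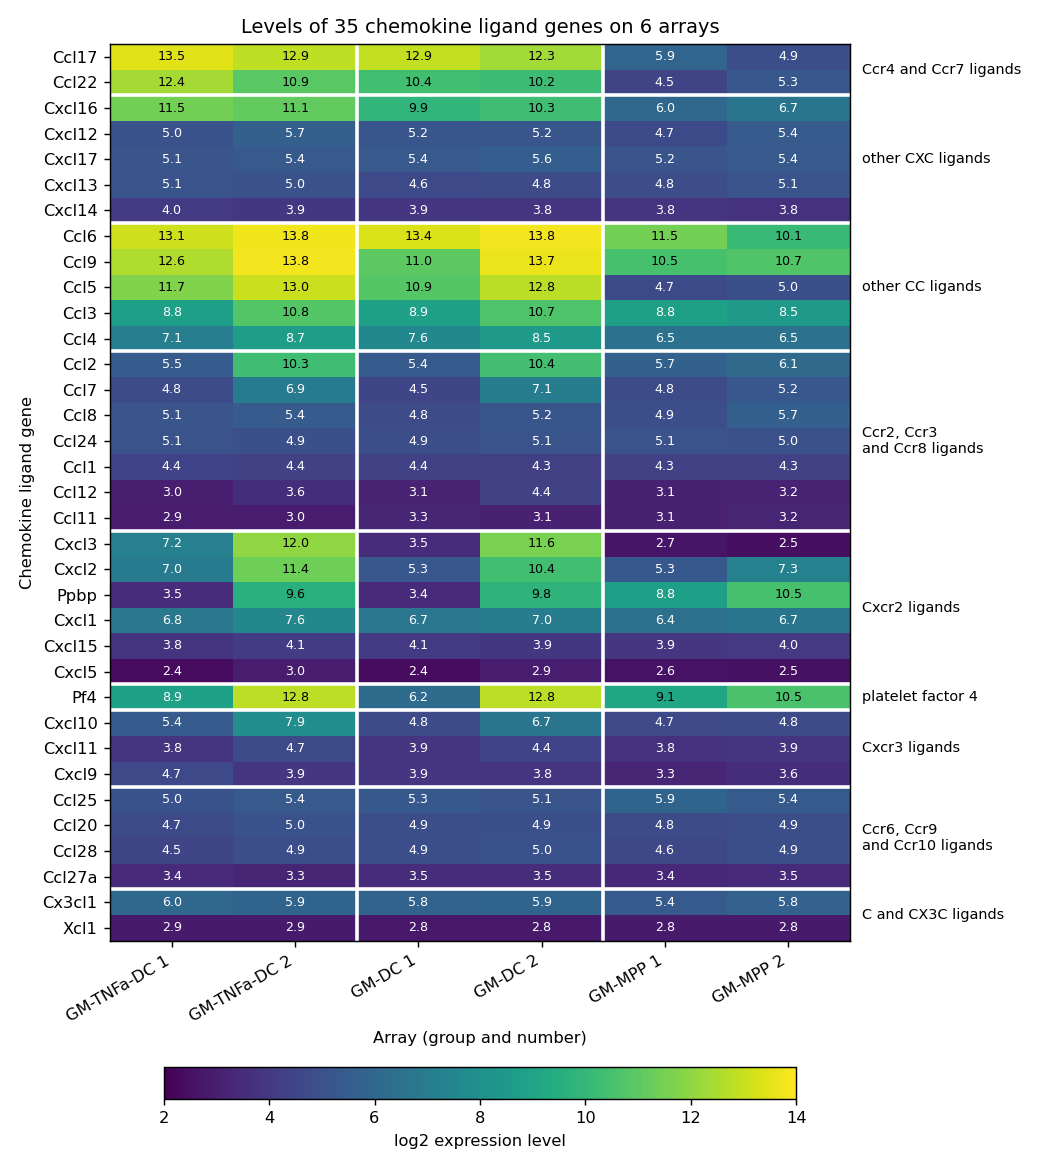
Log2 expression levels of the 35 chemokine ligand genes (rows, grouped by role) on the 6 arrays (columns, by group and number), printed in each cell and shown by colour. Ccl17, Ccl22, Cxcl16 and Ccl5 are bright on the 4 dendritic cell arrays, whereas Cxcl3, Cxcl2, Ccl2 and Ppbp are bright on the number-2 dendritic cell arrays and dim on at least 1 number-1 dendritic cell array.

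Promoters of 6 ligand genes of chromosome 5 are shown first. Ppbp, Pf4, Cxcl3 and Cxcl2 are shown because they lie in 1 cluster and were high on the number-2 dendritic cell arrays, and Cxcl1, their neighbour, and Cxcl10 because they hold the motif described here. Ppbp, Pf4, Cxcl3, Cxcl15, Cxcl1 and Cxcl2 follow each other in that order among the ligand genes of RefSeq assembly GRCm38.p6, with Cxcl5 before them and Cxcl9, Cxcl10 and Cxcl11 further along. NF-kB, a transcription factor family that TNFa activates, binds kappa B motifs, and the form with GGGA, any 2 bases and TTCC was searched on both strands of the 250 bases before each start site. The motif was chosen after the levels had been seen. It was present in 5 of 28 promoters of ligands (25 genes, the other 10 not being in the table of promoters) and in 1.21% of all 32851 promoters. The 5 genes were Cxcl1, Cxcl2, Cxcl3, Cxcl10 and Ccl1. Ccl1 was dim, at 4.26 to 4.43 on all arrays. A ligand not among these 5 either held no match or was not searched. The following windows, from RefSeq GRCm38.p6, run 5′ to 3′ on the gene's strand over the 120 bases from position -170 to -51 relative to the start. Capitals mark the motif, and where both strands hold it the overlapping matches are run together.
Cxcl3 (chr5:90785931-90786050, plus strand): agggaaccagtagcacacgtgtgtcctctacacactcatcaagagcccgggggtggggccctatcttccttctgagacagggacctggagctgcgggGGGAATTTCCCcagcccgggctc
Cxcl2 (chr5:90903729-90903848, plus strand): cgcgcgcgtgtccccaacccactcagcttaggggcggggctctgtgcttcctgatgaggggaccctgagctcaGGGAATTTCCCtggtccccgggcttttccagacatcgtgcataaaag
Cxcl1 (chr5:90891075-90891194, plus strand): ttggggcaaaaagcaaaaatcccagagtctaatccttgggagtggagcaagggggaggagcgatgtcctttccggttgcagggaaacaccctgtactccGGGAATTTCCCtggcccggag
Cxcl10 (chr5:92348940-92349059, minus strand): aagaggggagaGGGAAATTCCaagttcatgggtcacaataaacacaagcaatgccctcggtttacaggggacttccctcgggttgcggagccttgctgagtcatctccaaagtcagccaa
Pf4 (chr5:90772265-90772384, plus strand): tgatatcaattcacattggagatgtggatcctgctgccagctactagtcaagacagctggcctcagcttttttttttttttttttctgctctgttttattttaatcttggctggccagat
Ppbp (chr5:90768348-90768467, plus strand): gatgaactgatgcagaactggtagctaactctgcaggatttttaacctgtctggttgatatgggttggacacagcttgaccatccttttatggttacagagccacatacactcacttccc
Cxcl1, Cxcl2 and Cxcl3 shared the same 10 bases, GGGAATTTCC, on the gene's strand at positions -71, -97 and -73. Cxcl10 held GGGAAATTCC at position -159. The windows of Pf4 and Ppbp, shown because these neighbours were high on the same number-2 arrays, hold no match to these letters. A match is a description of the sequence and not a measured binding site.

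Which ligands accompany the step from progenitor to dendritic cell was asked by setting GM-DC against GM-MPP. In GM-DC 5 of the 35 ligands rose and none fell. Over all 18193 genes 1.87% rose and 2.63% fell by the same test. The median log2 change was 0.25 for the ligands and 0.02 for all genes. The rising ligands were Ccl17, Ccl22, Ccl5, Ccl6 and Cxcl16, and the same 5 rose in GM-TNFa-DC against GM-MPP, where none fell and 2.77% and 4.26% of all genes rose and fell. The median of the ligands in that comparison was 0.34, against 0.05 for all genes. These comparisons share the GM-MPP arrays. In such bulk samples more RNA per cell and more cells that carry the RNA cannot be told apart.

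Ccl17 and Ccl22 bind Ccr4, a receptor of helper and regulatory T cells. Ccl17 had levels of 13.48 and 12.87 in GM-TNFa-DC, 12.89 and 12.33 in GM-DC, and 5.91 and 4.90 in GM-MPP. It was at least 6.98 log2 units higher in GM-DC than in the same-numbered GM-MPP array, and the change was 7.20 ± 0.42 (SE, 2 arrays a group; limma adjusted p = 0.00321), or 147-fold. Both GM-MPP levels were close to the array median, so this fold is not exact. Ccl22 had levels of 12.40 and 10.92 in GM-TNFa-DC, 10.37 and 10.22 in GM-DC, and 4.45 and 5.25 in GM-MPP. The dendritic cell arrays did not overlap the progenitors for either gene. Ccl22 changed by 5.44 ± 0.53 in GM-DC (adjusted p = 0.0114 by limma) and by 6.80 ± 0.53 in GM-TNFa-DC against GM-MPP (adjusted p = 0.00539 by limma). Ccl17 kept its call in both comparisons with any 1 array left out. Ccl22 lost it in GM-DC against GM-MPP without GM-DC 1, GM-DC 2, GM-MPP 1 or GM-MPP 2 (limma adjusted p = 0.0681, 0.0570, 0.0905 and 0.0778), and in GM-TNFa-DC against GM-MPP without GM-MPP 1 or GM-MPP 2 (limma adjusted p = 0.0582 and 0.0523). The genes for Ccl22, Cx3cl1 and Ccl17 follow each other on chromosome 8 among the ligands, but Cx3cl1, between them, had levels of 6.01 and 5.85 in GM-TNFa-DC, 5.82 and 5.87 in GM-DC, and 5.40 and 5.78 in GM-MPP.

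Cxcl16, a membrane-anchored chemokine that is also shed and binds Cxcr6, had levels of 11.48 and 11.10 in GM-TNFa-DC, 9.88 and 10.31 in GM-DC, and 6.03 and 6.66 in GM-MPP. The 3 groups did not overlap. Its change in GM-DC against GM-MPP was 3.75 ± 0.31 (limma adjusted p = 0.00632), or 13.5-fold, and in GM-TNFa-DC against GM-MPP it was 4.95 ± 0.31 (limma adjusted p = 0.00325). A second probe set of Cxcl16, fitted with all 45037 probe sets that are not controls, changed by 5.16 ± 0.56 in GM-DC (limma adjusted p = 0.0166), with GM-MPP levels of 3.35 and 5.07. The direction was shared by both probe sets, while the size differed. The call in GM-DC was lost without GM-MPP 1 or GM-MPP 2 (limma adjusted p = 0.0563 and 0.0555).

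Ccl5, also called RANTES, draws monocytes and activated T cells. It had levels of 11.70 and 13.02 in GM-TNFa-DC, 10.86 and 12.76 in GM-DC, and 4.70 and 4.95 in GM-MPP. It was high on all dendritic cell arrays and higher on the number-2 ones. The change was 6.98 ± 0.71 in GM-DC (limma adjusted p = 0.0123), or 126-fold against a level near the array median, and 7.54 ± 0.71 in GM-TNFa-DC against GM-MPP (limma adjusted p = 0.00857). Without GM-MPP 1 or GM-MPP 2 the call was lost in GM-DC (limma adjusted p = 0.108 and 0.0982) and in GM-TNFa-DC (limma adjusted p = 0.0846 and 0.0775). Ccl6, a myeloid chemokine of rodents, had levels of 13.12 and 13.75 in GM-TNFa-DC, 13.36 and 13.79 in GM-DC, and 11.51 and 10.09 in GM-MPP. It was thus bright already in the progenitors, and it changed by 2.77 ± 0.50 in GM-DC (limma adjusted p = 0.0436) and by 2.63 ± 0.50 in GM-TNFa-DC against GM-MPP (limma adjusted p = 0.0409). In a fit of only the 4 arrays compared the call was lost in GM-DC (limma adjusted p = 0.0557) and in GM-TNFa-DC (limma adjusted p = 0.0661). It was also lost in both comparisons without any 1 of the 6 arrays, at adjusted p of 0.0551 to 0.154 in GM-DC and 0.0605 to 0.124 in GM-TNFa-DC by limma, with a higher level in the dendritic cells each time.

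Ccl9, a close relative of Ccl6 that also binds Ccr1, had levels of 12.56 and 13.79 in GM-TNFa-DC, 11.00 and 13.66 in GM-DC, and 10.50 and 10.75 in GM-MPP. The dendritic cell arrays lay above the progenitors but spread widely, and the change of 1.70 ± 0.89 in GM-DC did not pass (limma adjusted p = 0.340). Its second probe set gave levels of 11.82 and 13.38 in GM-TNFa-DC, 10.25 and 13.18 in GM-DC, and 9.66 and 9.89 in GM-MPP, in the same order of arrays. Ccl3, or macrophage inflammatory protein 1-alpha, had levels of 8.77 and 10.80 in GM-TNFa-DC, 8.88 and 10.68 in GM-DC, and 8.82 and 8.47 in GM-MPP. On array 1 the 3 groups lay close together, and the number-2 dendritic cell arrays stood well above both progenitor arrays. Ccl4, its neighbour on chromosome 11 and a chemoattractant of monocytes, had levels of 7.13 and 8.72 in GM-TNFa-DC, 7.62 and 8.46 in GM-DC, and 6.51 and 6.53 in GM-MPP. Its dendritic cell arrays did not overlap the progenitors, and the change in GM-DC was 1.52 ± 0.56 without passing (limma adjusted p = 0.202). Ccl4 is named although the rule for named genes did not select it.

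**Figure D2:**
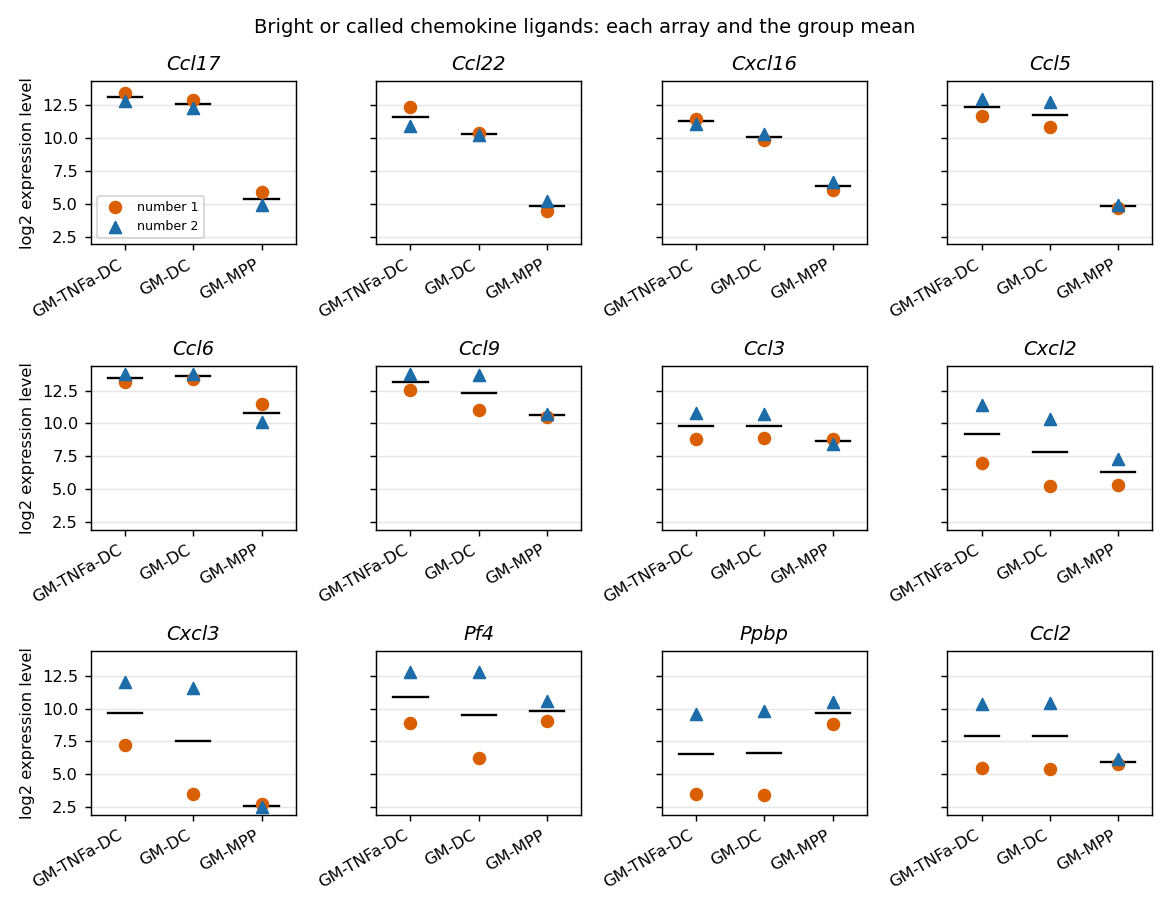
Log2 expression level (vertical axis) of 12 chemokine ligands in GM-TNFa-DC, GM-DC and GM-MPP, with 1 point for each array (circles for number 1, triangles for number 2) and a bar at the mean of the 2 arrays. The points of Ccl17 and Cxcl16 lie close together within each dendritic cell group, whereas the triangles of Cxcl2, Cxcl3, Pf4, Ppbp and Ccl2 stand far above the circles in both dendritic cell groups. Ccl2 was added to the 11 ligands that the rule selected.

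Across all 35 ligands, 20 were higher in GM-DC than in GM-MPP on both numbers and 5 were lower, against 35.5% and 32.6% of all genes. The arrays of GM-DC and GM-MPP did not overlap for 17 ligands that were higher and 3 that were lower (28.3% and 27% of all genes). At least a 2-fold higher level on both numbers was found for 6 ligands, Ccl17, Ccl22, Cxcl16, Ccl5, Ccl6 and Ccl4, and for 3.65% of all genes. At least a 2-fold lower level on both was found for 0 ligands and 4.07% of all genes. In GM-TNFa-DC against GM-MPP, 18 ligands were higher on both numbers and 4 lower (39.1% and 30.7% of all genes), and the arrays did not overlap for 15 higher and 2 lower ligands (31.6% and 26.1%). In that comparison 8 were at least 2-fold higher on both numbers (3.8% of all genes) and 0 at least 2-fold lower (5.32%). The 8 were Ccl17, Ccl22, Cxcl16, Ccl5 and Ccl6, as in GM-DC, with Ccl9, Cxcl2 and Cxcl3.

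What TNFa added to GM-CSF was asked by setting GM-TNFa-DC against GM-DC, the arrays of which also serve in the comparison with GM-MPP. No ligand passed, and 0% of all genes rose and 0% fell (limma, lowest adjusted p of a ligand = 1.00). At an unadjusted limma p under 0.05, 2 ligands, Ccl22 and Cxcl16, were higher and 0 lower, against 1.48% of all genes higher and 0.77% lower. Cxcl16 differed by 1.20 ± 0.31, a 2.29-fold higher level, with a 95% interval not adjusted for the number of genes of 0.43 to 1.97. Same-numbered arrays differed by 1.60 on number 1 and 0.80 on number 2, and the levels of 11.48 and 11.10 in GM-TNFa-DC did not overlap 9.88 and 10.31 in GM-DC. Its second probe set differed by 1.19 ± 0.56. Ccl22 differed by 1.36 ± 0.53 (95% interval 0.04 to 2.69), with 2.03 on number 1 and 0.70 on number 2. Ccl17 differed by 0.57 ± 0.42 (95% interval -0.49 to 1.62), with 0.59 and 0.54 on the 2 numbers. For these 3 ligands every same-numbered pair was higher with TNFa.

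For the other bright ligands the intervals were wide. Ccl5 differed by 0.55 (95% interval -1.22 to 2.33) and Ccl9 by 0.84 (-1.36 to 3.05), both with higher levels on both numbers. Ccl6 differed by -0.14 (-1.38 to 1.09) and Ccl3 by 0.004 (-2.06 to 2.07), so that changes of about 2-fold either way lie inside both intervals, which come from a fit without the array number. Between same-numbered arrays Ccl6 differed by -0.24 and -0.04 and Ccl3 by -0.11 and 0.12. Cxcl3 was at 7.23 in GM-TNFa-DC 1 and 3.50 in GM-DC 1, the second of which lies below the array median, but at 12.02 in GM-TNFa-DC 2 and 11.58 in GM-DC 2. Pf4 likewise was at 8.88 in GM-TNFa-DC 1 and 6.23 in GM-DC 1, and at 12.81 and 12.79 in GM-TNFa-DC 2 and GM-DC 2. Each of these number-1 differences rests on a single pair of arrays. Cxcl2 was at least 2-fold higher with TNFa on both numbers, by 1.68 and 1.00, which held for 1 ligand and 0.0715% of all genes, and 0 ligands and 0.0495% of all genes were at least 2-fold lower.

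By direction alone, 17 ligands were higher with TNFa on both numbers and 6 lower, against 30.9% and 26.3% of all genes. The arrays of the groups did not overlap for 7 ligands that were higher, namely Ccl22, Cxcl16, Cxcl9, Cxcl13, Cxcl14, Ccl1 and Xcl1, and for 3 that were lower, Ccl11, Ccl27a and Cxcl17. The background for such counts was 14.9% and 10.6% of all genes. Of these 10 ligands, 8 were among the 18 dim ones, with all changes but that of Cxcl9 below 0.35 in size. Cxcl9, an interferon-induced Cxcr3 ligand, had levels of 4.65 and 3.89 in GM-TNFa-DC, 3.88 and 3.83 in GM-DC, and 3.27 and 3.57 in GM-MPP. Its second probe set had a lower level in GM-TNFa-DC than in GM-DC on number 2 and a higher one on number 1.

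**Figure D3:**
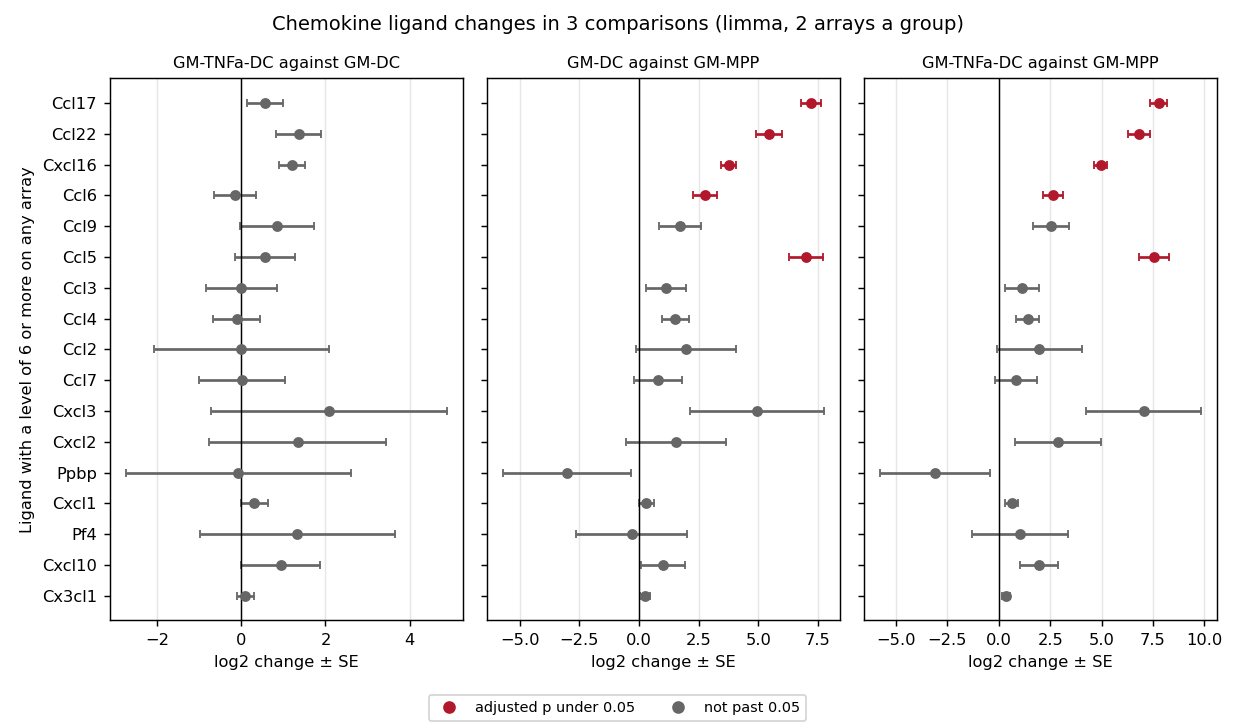
Log2 change with its standard error (horizontal axis) of the 17 ligands that reached a level of 6 on any array (vertical axis), in GM-TNFa-DC against GM-DC, GM-DC against GM-MPP and GM-TNFa-DC against GM-MPP. Red points passed limma's adjusted p of 0.05. Only Ccl17, Ccl22, Cxcl16, Ccl6 and Ccl5 are red, in the comparisons with GM-MPP, and the bars of Cxcl3, Ppbp, Pf4, Cxcl2 and Ccl2 are the widest.

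Many ligands differed between the array numbers of the dendritic cell groups. In both groups 10 of 35 ligands were at least 2-fold higher on the number-2 array, and 0 were at least 2-fold lower. The same held for 3.2% and 2.06% of all genes. The 10 were Ccl2, Ccl3, Ccl5, Ccl7, Ccl9, Cxcl2, Cxcl3, Cxcl10, Pf4 and Ppbp. Each ligand was counted by its probe set with the highest mean. Cxcl1, not among the 10, had larger differences in its other probe sets. In GM-MPP, 3 ligands were at least 2-fold higher on number 2 (1.32% of all genes), Cxcl2, Pf4 and Ppbp, and 2 at least 2-fold lower (0.857% of all genes), Ccl6 and Ccl17. A limma fit of the 4 dendritic cell arrays with group and number as terms, added after the data had been seen and with 1 residual degree of freedom besides the prior, called 14 ligands higher and 1 lower on number 2, beside 6.41% and 5.41% of all genes. The 14 were the 10 above with Ccl4, Ccl6, Ccl12 and Cxcl5. Ccl12 and Cxcl5 lay below the median of every array, where values carry background signal. The lower one was Ccl17, by -0.59 ± 0.10 (limma adjusted p = 0.0246). This fit takes the dendritic cell groups as the replicates of each number. Its errors and p-values thus measure how alike the groups were, and not how the numbers would differ in further samples.

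The Cxcr2 ligands draw neutrophils. Cxcl3 had levels of 7.23 and 12.02 in GM-TNFa-DC, 3.50 and 11.58 in GM-DC, and 2.69 and 2.48 in GM-MPP, so that it was dim in the progenitors and bright on the number-2 dendritic cell arrays. The number-2 level was 27.6 times the number-1 level in GM-TNFa-DC. In GM-DC the number-1 level lay below the array median, so no exact ratio is given there. Its change in GM-DC against GM-MPP was 4.96 ± 2.80 (limma adjusted p = 0.375). Cxcl2 had levels of 6.95 and 11.37 in GM-TNFa-DC, 5.27 and 10.37 in GM-DC, and 5.29 and 7.26 in GM-MPP. It was higher on number 2 in every group, 21.4-fold in GM-TNFa-DC, 34.3-fold in GM-DC, but 3.92-fold in GM-MPP. The last 2 folds are not exact, because their number-1 levels of 5.27 and 5.29 lay not far above the array medians. Cxcl5, in the same cluster of chromosome 5, was at 2.35 to 2.96, and Cxcl15 at 3.79 to 4.09.

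Cxcl1 depended on the probe set. The one with the highest mean had levels of 6.79 and 7.56 in GM-TNFa-DC, 6.69 and 7.03 in GM-DC, and 6.45 and 6.66 in GM-MPP. A dimmer one had levels of 3.99 and 7.98 in GM-TNFa-DC, 3.66 and 6.76 in GM-DC, and 3.91 and 3.81 in GM-MPP. The third had 6.28 and 8.83 in GM-TNFa-DC, 6.04 and 7.85 in GM-DC, and 5.84 and 6.04 in GM-MPP. All 3 were highest on the number-2 dendritic cell arrays, and the probe set used for the gene showed the smallest difference. None of them passed in any comparison of groups.

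Ppbp and Pf4 encode chemokines stored in the granules of platelets and their precursors, the megakaryocytes. Ppbp had levels of 3.50 and 9.60 in GM-TNFa-DC, 3.45 and 9.79 in GM-DC, and 8.80 and 10.51 in GM-MPP. It was dim on the number-1 dendritic cell arrays and bright on the 4 other arrays, so the change of -3.03 ± 2.67 in GM-DC against GM-MPP (limma adjusted p = 0.574) stood for -5.35 on number 1 and -0.72 on number 2. Between the numbers of the dendritic cell arrays it differed by 6.22 ± 0.15 (limma adjusted p = 0.00187), a size that is not exact because both number-1 levels lay below the array median. This error and p-value measure only how alike the difference was in the dendritic cell groups. Pf4 had levels of 8.88 and 12.81 in GM-TNFa-DC, 6.23 and 12.79 in GM-DC, and 9.08 and 10.55 in GM-MPP. Its number-2 dendritic cell arrays stood above both progenitor arrays and its number-1 ones below both. The change in GM-DC against GM-MPP was -2.85 on number 1 and 2.25 on number 2.

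Markers of megakaryocytes and platelets were set beside Pf4 and Ppbp. Of 11 such markers 0 were at least 2-fold higher and 1, Vwf, at least 2-fold lower on number 2 in both dendritic cell groups, and 4 were at least 2-fold higher on number 2 in GM-MPP. Over all genes the shares were 3.2%, 2.06% and 1.32%. Their mean log2 level was 5.56 and 5.68 in GM-TNFa-DC, 5.71 and 5.53 in GM-DC, and 5.93 and 6.64 in GM-MPP. Gata1, the transcription factor of this lineage, lay below every array's median, between 3.39 and 4.31, and Itga2b, which encodes CD41, was at 6.19 and 6.11 in GM-TNFa-DC, 6.36 and 6.09 in GM-DC, and 7.94 and 8.76 in GM-MPP. Vwf went the other way, at 8.89 and 7.78 in GM-TNFa-DC, 9.61 and 7.88 in GM-DC, and 7.01 and 7.51 in GM-MPP. Treml1 was higher on number 2 in every group, at 5.85 and 6.54, 6.13 and 6.59, and 6.18 and 7.13 in that order. The part of these markers in the levels of Pf4 and Ppbp was not tested.

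The Ccr2 ligands recruit monocytes. Ccl2 had levels of 5.50 and 10.32 in GM-TNFa-DC, 5.41 and 10.41 in GM-DC, and 5.74 and 6.14 in GM-MPP. The number-1 dendritic cell arrays were thus no higher than the progenitors, while the number-2 ones were 28.3-fold higher than number 1 in GM-TNFa-DC, and 31.9-fold higher in GM-DC. Both folds are not exact, because the number-1 levels lay not far above the array medians. Ccl7, its neighbour on chromosome 11, had levels of 4.76 and 6.89 in GM-TNFa-DC, 4.51 and 7.11 in GM-DC, and 4.77 and 5.25 in GM-MPP. Ccl12, another Ccr2 ligand of mice, reached 4.36 on GM-DC 2 and was at 3.01 to 3.58 on the other arrays. Ccl8, Ccl11, Ccl24 and Ccl1, which act mainly on Ccr3 and Ccr8, stayed between 2.94 and 5.66 on all arrays. Ccl2, Ccl7 and Ccl12 are named here although the rule did not select them.

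**Figure D4:**
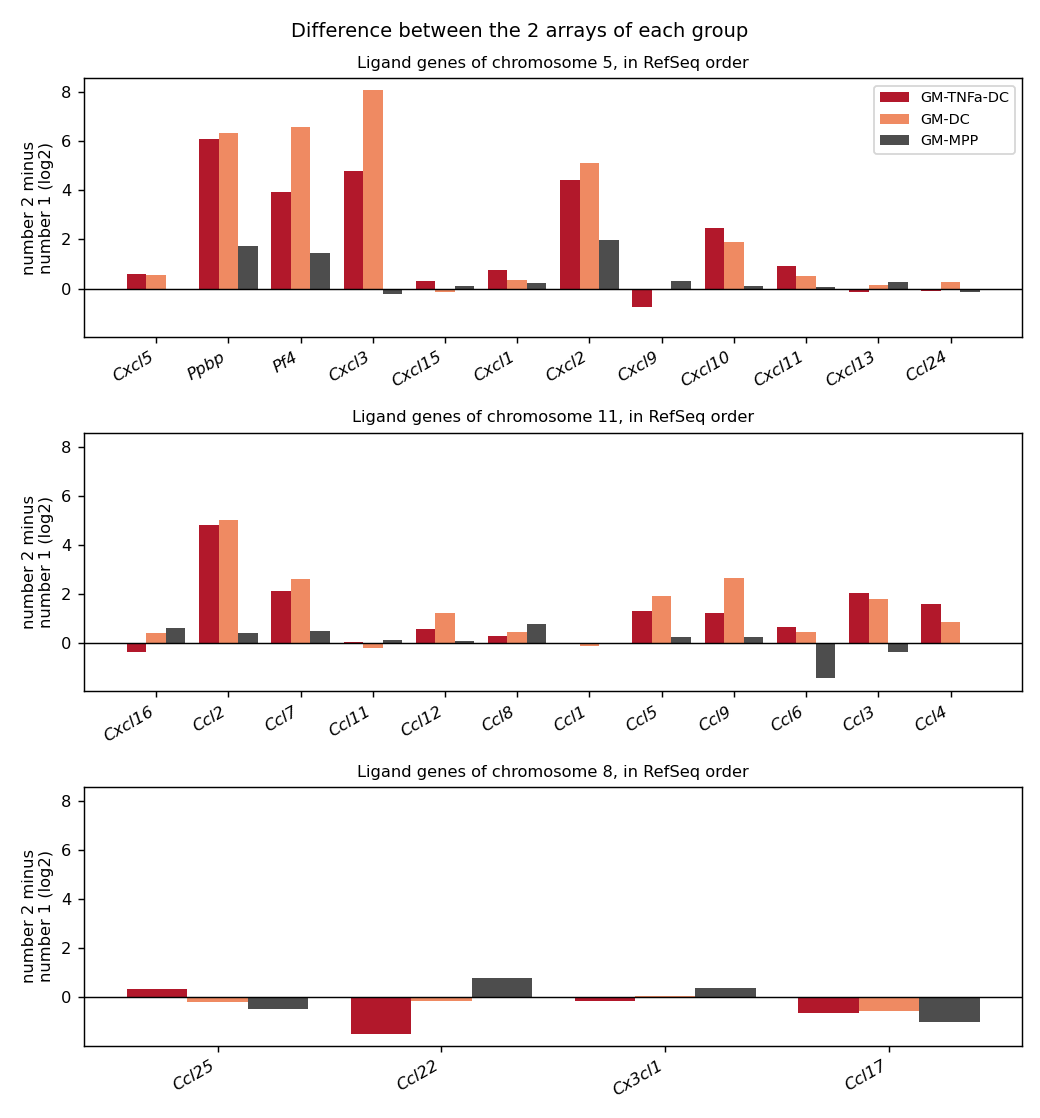
Difference between the number-2 and the number-1 array of each group in log2 level (vertical axis) for the ligand genes of chromosomes 5, 11 and 8 in the order of the RefSeq annotation (horizontal axis), with a bar each for GM-TNFa-DC, GM-DC and GM-MPP. Ppbp, Pf4, Cxcl3 and Cxcl2 on chromosome 5 and Ccl2 on chromosome 11 have bars of 3.92 or more in both dendritic cell groups. Cxcl15 and Cxcl1, between Cxcl3 and Cxcl2, have bars of 0.77 or less. Cxcl1 is drawn by its probe set with the highest mean, and its other probe sets differed more between the numbers. One of those was at 3.99 and 7.98 in GM-TNFa-DC. On chromosome 8 the dendritic cell bars run from -1.48 (Ccl22 in GM-TNFa-DC) to 0.35 (Ccl25 in GM-TNFa-DC).

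Among the Cxcr3 ligands, which interferons induce and which draw effector T cells, Cxcl10 had levels of 5.45 and 7.90 in GM-TNFa-DC, 4.80 and 6.68 in GM-DC, and 4.67 and 4.79 in GM-MPP. It was higher with TNFa on both numbers, by 0.65 and 1.22, and did not pass (0.93 ± 0.93, limma adjusted p = 1.00). Cxcl11 stayed between 3.77 and 4.70, with its highest levels on the number-2 dendritic cell arrays. Of 10 interferon signalling genes, 2 rose in GM-TNFa-DC and 1 in GM-DC against GM-MPP, and 2, Irf7 and Ifnar2, were at least 2-fold higher on number 2 in both dendritic cell groups. Over all genes these shares were 2.77%, 1.87% and 3.2%. Irf7, a transcription factor of interferon responses, had levels of 5.34 and 9.22 in GM-TNFa-DC, 4.83 and 8.58 in GM-DC, and 4.56 and 5.20 in GM-MPP. None of the 10 was at least 2-fold lower there, but Irf1 and Stat2 were lower on number 2 in both dendritic cell groups. Irf1 was at 9.36 and 8.55 in GM-TNFa-DC and 9.16 and 8.43 in GM-DC. Cxcl9, also a Cxcr3 ligand but dim throughout, was lower on number 2 in GM-TNFa-DC, at 4.65 and 3.89. In GM-DC it hardly differed, at 3.88 and 3.83, and its second probe set was at 3.49 and 3.60. The genes that rose against GM-MPP were Stat2 in both dendritic cell groups and the receptor chain gene Ifngr2 in GM-TNFa-DC. Ifng and Ifnb1 were dim throughout, at 2.56 to 2.82 and 3.52 to 4.12.

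Some lists of cell type markers moved with the array number and others did not. Over all genes, 3.2% were at least 2-fold higher on number 2 in both dendritic cell groups and 2.06% lower. Of 10 monocyte and macrophage markers 3, Cd14, Fcgr1 and C1qa, were at least 2-fold higher on number 2 in both dendritic cell groups and 0 lower. In GM-MPP 5 of the 10 were at least 2-fold higher on number 2, against 1.32% of all genes. C1qa was at only 3.67 to 5.45 on the dendritic cell arrays. Mertk went the other way, at 9.31 and 8.28 in GM-TNFa-DC and 9.57 and 8.70 in GM-DC. The mean log2 level of the list was 8.80 and 9.87 in GM-TNFa-DC, 8.93 and 10.05 in GM-DC, and 8.61 and 9.62 in GM-MPP. Cd14, the lipopolysaccharide coreceptor of monocytes, had levels of 8.50 and 13.18 in GM-TNFa-DC, 7.48 and 12.50 in GM-DC, and 8.24 and 9.25 in GM-MPP. Of 12 dendritic cell markers 8 were at least 2-fold lower and 0 higher on number 2 in both groups, and their mean level was 10.77 and 9.08 in GM-TNFa-DC and 10.26 and 8.82 in GM-DC, with 5.16 and 5.49 in GM-MPP. Of 11 stromal and endothelial markers 3, Pecam1, Kdr and Dcn, were at least 2-fold higher on number 2 in both groups, with Kdr at 6.09 and 7.43 in GM-TNFa-DC, 6.29 and 7.50 in GM-DC, and 5.05 and 4.97 in GM-MPP, while Cdh5, a defining endothelial gene, stayed at 3.54 to 4.07. Of 11 neutrophil markers 2 (Mmp8 and Mmp9) passed 2-fold upwards and 4 (Ctsg, Ltf, Ngp and S100a9) downwards. Of 8 progenitor markers 1 (Gfi1) passed upwards and 1 (Kit) downwards. Of 8 mast cell and basophil markers and of 8 T, B and NK cell markers, 0 passed in either direction. The part of these markers in the ligands' differences was not tested.

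The remaining ligands, apart from Cx3cl1, stayed below a level of 6 on every array. Ccl20, Ccl25, Ccl27a and Ccl28, which guide lymphocytes to gut and skin, lay between 3.25 and 5.88. Cxcl12, which holds progenitors in the marrow through Cxcr4, was at 4.68 to 5.67, and Cxcl13, Cxcl14 and Cxcl17 at 3.76 to 5.59. Xcl1, whose receptor is carried by cross-presenting dendritic cells, spanned 2.80 to 2.88. Cx3cl1, a membrane-anchored ligand of monocytes, again depended on the probe set. Its brightest passed in no comparison, whereas another, with 6.70 and 5.95 in GM-TNFa-DC, 5.95 and 5.68 in GM-DC, and 4.74 and 4.20 in GM-MPP, rose by 1.86 ± 0.33 in GM-TNFa-DC against GM-MPP in the fit of all probe sets (limma adjusted p = 0.0396). In GM-DC that probe set differed by 1.35 ± 0.33 without passing (limma adjusted p = 0.0996).

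Of the receptors for these ligands, 16 were measured, and 1, Ccr7, rose in either dendritic cell group against GM-MPP, while none fell. Over all genes 2.77% rose and 4.26% fell in GM-TNFa-DC, and 1.87% rose and 2.63% fell in GM-DC. Ccr7 guides dendritic cells to lymph nodes and had levels of 11.87 and 9.91 in GM-TNFa-DC, 10.41 and 9.41 in GM-DC, and 2.85 and 3.44 in GM-MPP. Ccr4, the receptor of Ccl17 and Ccl22, was at 3.97 to 4.33 on all arrays. Cxcr6, the receptor of Cxcl16, was at 3.28 to 3.74. Ccr1, the receptor of Ccl6 and Ccl9, was at 9.26 and 11.69 in GM-TNFa-DC, 10.30 and 11.86 in GM-DC, and 10.64 and 11.00 in GM-MPP, and it was the 1 receptor of 16 at least 2-fold higher on number 2 in both dendritic cell groups. Of 5 atypical receptors, which bind chemoattractants without signalling migration, none passed, and Ackr3 and Ccrl2 were at least 2-fold higher on number 2 in both dendritic cell groups. For both lists of receptors the share of all genes that much higher on number 2 was 3.2%.

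Regulators of ligand transcription were measured as well. Of 10 genes of NF-kB subunits and inhibitors, 2 rose in GM-TNFa-DC (Nfkbie and Tnfaip3) and 1 in GM-DC (Nfkbie) against GM-MPP, and none passed between GM-TNFa-DC and GM-DC, where their median log2 change was 1.19, against 0.01 for all genes and 0.09 for the ligands. Against GM-MPP 2.77% of all genes rose in GM-TNFa-DC and 1.87% in GM-DC. Relb, a subunit linked to dendritic cell maturation, had levels of 9.76 and 7.57 in GM-TNFa-DC, 7.98 and 6.56 in GM-DC, and 3.90 and 5.59 in GM-MPP, and so was lower on number 2 in both dendritic cell groups. Nfkbiz, an inhibitor-like regulator of NF-kB, had levels of 7.53 and 8.53 in GM-TNFa-DC, 5.91 and 7.35 in GM-DC, and 6.41 and 7.55 in GM-MPP, and was higher on number 2 in every group. These were the 1 gene of the 10 at least 2-fold lower and the 1 at least 2-fold higher on number 2 in both dendritic cell groups. Over all genes 2.06% were that much lower and 3.2% that much higher. Of 5 genes of the interleukin-4 receptor and Irf4 axis, Irf4 rose in both dendritic cell groups against GM-MPP, by 4.74 ± 0.62 in GM-TNFa-DC (limma adjusted p = 0.0185) and 4.45 ± 0.62 in GM-DC (limma adjusted p = 0.0248). Il4 and Il13, cytokines known to raise Ccl17 and Ccl22, stayed at 3.39 to 3.74 and 3.73 to 4.06. The part of any of these regulators in the ligands' levels was not tested.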

How the data were processed

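RNA of 6 samples was hybridised to Affymetrix arrays. The deposited values are log2 levels of 45101 probe sets, made by the authors with RMA, which corrects background, equalises the arrays' distributions and summarises probes, per the submitters' processing notes. Which version and probe definitions were used, and which arrays were processed jointly, the sources used here do not give. Its log2 scale was read from the range of 1.89 to 14.43. The number of arrays limits the precision.

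Symbols came from the platform annotation, updated through Entrez identifiers (34741 of 34945 single-symbol probe sets were in the RefSeq table). limma 3.58.1 (R 4.3.3; lmFit, eBayes with an intensity trend) was fitted to all 6 arrays and 18193 genes with 3 residual degrees of freedom, Benjamini-Hochberg adjustment over all genes and a threshold of 0.05, after being tested on simulated data. Values after ± are moderated standard errors. The ligands, lists, roles and tests were chosen with earlier results of these data known. Ligands were given in full if called in any comparison, if a group mean reached 9, or if GM-TNFa-DC and GM-DC arrays did not overlap and differed by at least 1. All others, including Ccl4, Ccl2, Ccl7, Ccl12, Cxcl1, Cxcl9, Cxcl10, Cx3cl1, and Relb, Irf7, Kdr and Cd14 among the other lists, were chosen after their values were seen. Alternatives were the array number as a block, only the 4 arrays compared with and without it, a repeated quantile normalization, median centring, dim genes left out, averaged probe sets, no trend, and leaving out each array. The fit of the array number, all 45037 probe sets without controls, and same-numbered differences were added after seeing the data. Promoters were searched with Python 3.11.15, and matplotlib 3.10.9 drew the plots.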

Additional observations from a re-analysis of the deposited data

Results flagged for a closer look

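Outside the 35 ligands, the probe set shared by Ccl19 and its near-identical copies gave a signal above both progenitor arrays on all 4 dendritic cell arrays. Its levels were 5.61 and 5.79 in GM-TNFa-DC, 5.75 and 5.82 in GM-DC, and 5.24 and 5.27 in GM-MPP. The difference between GM-DC and GM-MPP was 0.53 and did not pass in a limma fit of all probe sets (adjusted p = 0.203). Ccl19 is a ligand of Ccr7. The copies cannot be told apart by this probe set.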

How the results depend on the processing

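Of 462 alternative values for the 11 ligands given in full, 412 kept direction and side of the threshold, 29 lost a call in the same direction and 21 turned sign. No ligand passed between GM-TNFa-DC and GM-DC in any alternative. With each array left out in turn, 1 to 4 ligands were called in GM-DC against GM-MPP and 2 to 5 in GM-TNFa-DC against GM-MPP (the 5 without GM-TNFa-DC 2, where Ccl6 lost its call and Cxcl9 gained one), the lowest counts without GM-MPP 1 or GM-MPP 2, where 1 array stands for the progenitors and is assumed to vary like the other groups. Over all genes these counts went down to 20 higher and 30 lower in GM-DC, and to 40 higher and 51 lower in GM-TNFa-DC, both without GM-MPP 2. Changes that turned sign were none of them called. In GM-TNFa-DC against GM-DC, leaving out 1 array gave -1.01 to 1.02 for Ccl3, -0.40 to 1.51 for Ccl5, -0.46 to 0.17 for Ccl6, -0.48 to 2.17 for Ccl9, -1.21 to 3.89 for Cxcl2, -1.95 to 6.12 for Cxcl3, -1.95 to 4.61 for Pf4 and -3.24 to 3.10 for Ppbp. In GM-DC against GM-MPP it gave -1.0 to 4.10 for Cxcl2, -3.58 to 2.98 for Pf4 and -6.20 to 0.14 for Ppbp, and in GM-TNFa-DC against GM-MPP -0.93 to 2.99 for Pf4. Median centring gave -0.0075 for Ccl3 in GM-TNFa-DC against GM-DC. The cause of these turns was not tested.

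By the labels, same-numbered arrays have only the number in common, and what it marks is not stated. The deviations from the group means correlated at 0.806 between GM-TNFa-DC and GM-DC, 0.105 between GM-DC and GM-MPP, and 0.0719 between GM-TNFa-DC and GM-MPP. With the number as a replicate block the same 5 ligands were called against GM-MPP in each dendritic cell group and 0 between the dendritic cell groups, while the calls over all genes became 627 higher and 849 lower in GM-DC (340 and 479 without the block) and 850 and 1210 in GM-TNFa-DC (504 and 775). In fits of only the 4 arrays compared with the block, 4 ligands were called in each (151 higher and 125 lower genes in GM-DC, 144 and 116 in GM-TNFa-DC), and without the block GM-TNFa-DC had 303 and 446. With averaged probe sets, Ccl6 lost its call in GM-DC (limma adjusted p = 0.0514) and Cx3cl1 gained one in GM-TNFa-DC, both against GM-MPP. In the main fit, with 2 arrays a group and no term for the number, intervals for Ccl2, Cxcl2, Cxcl3, Pf4 and Ppbp span several log2 units. Between same-numbered arrays of GM-TNFa-DC and GM-DC, Ccl2 differed by 0.09 and -0.09, Ppbp by 0.05 and -0.19, but Cxcl3 by 3.73 and 0.44. Values near the array median carry background signal.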
